A study of Homo sapiens with 6 samples.

Results

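A group of 4 named transcripts was followed across 6 arrays of MDA-MB-231 cells. They are p53mRNA, LUST, CARIntergenic10 and ENST00000519624, each measured by 1 probe with 1 spot per array, and they are 4 of 60639 target probes and 4 of 25 transcripts that came with the same pair of custom probe sets. They were chosen by name from probes whose values on these arrays were already known, so their levels and differences are a description without a test. MDA-MB-231 is an established human breast cancer line that is known to carry a missense mutation in the p53 gene. The cells were kept for 24 h with PBS, the control, or with LPS, IL1b, TNFa, IL6 or TGFb, and each condition had 1 Cy3 array. Doses, passages and the number of cultures are not given in the labels. With 1 array per condition there is no replicate error, and a treatment cannot be told apart from its array.

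The 4 transcripts belong to different kinds of RNA. The name p53mRNA stands for the messenger of the tumour suppressor p53, a transcription factor that halts the cell cycle or starts apoptosis after DNA damage; this messenger is also known to bind the protein MDM2, the ubiquitin ligase that has p53 degraded. LUST is a long non-coding RNA read from the strand opposite to RBM5, a splicing regulator that favours apoptosis. CARIntergenic10 is one of the RNAs identified in chromatin fractions, and is transcribed between protein-coding genes. ENST00000519624 carries only an Ensembl transcript identifier, and the tables used here do not pair it with a gene. LPS acts through TLR4, IL1b and TNFa mainly through NF-kB, IL6 through STAT3 and TGFb through SMAD proteins.

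LUST was the only one of the 4 whose name matched the RefSeq table, as a synonym of RBM5-AS1, which lies within RBM5 on the opposite strand. Its start region is shown because it is the only one of the 4 with a sequence in the tables used here. The motifs of STAT, SMAD and NF-kB were searched for IL6, for TGFb and for the other stimuli, beside the AP-1 motif and the TATA box. The window runs from 250 bases before the RefSeq start to 50 bases after it, at chr3:50100939-50101238 on the minus strand of GRCh38.p14, and capitals mark every match to the motifs that were searched.

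RBM5-AS1 (LUST) start region: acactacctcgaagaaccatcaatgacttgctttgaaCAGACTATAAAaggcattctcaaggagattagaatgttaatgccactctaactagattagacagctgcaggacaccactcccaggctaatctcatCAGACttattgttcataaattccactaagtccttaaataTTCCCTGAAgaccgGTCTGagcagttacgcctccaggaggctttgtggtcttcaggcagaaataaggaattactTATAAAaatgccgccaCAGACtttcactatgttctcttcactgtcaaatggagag

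The motifs were searched on both strands. The STAT motif TTCNNNGAA, which reads the same on both strands, matched at 1 place, 79 bases before the start, and 7.7% of 35116 RefSeq windows of this length hold a match. The short SMAD motif CAGAC matched at 4 places, and 45.3% of windows hold at least 1. The TATA box letters TATAAA matched at 2 places, and 11.5% of windows hold a match. The NF-kB motif GGGNNNNNCC had no match in these letters, and 58.7% of all windows hold one. The AP-1 motif TGANTCA had no match either, and 7.7% of all windows hold one. The matches do not overlap one another. The window was 41.7% G or C, beside a median of 58.7% over all windows. A match is a description of the letters and not a bound site.

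Levels below are quantile-normalized log2 intensities, a scale on which each array has the same distribution and a median of 5.08 over all probes. The arrays differed in brightness before that step. The 75th percentile of the scanner signal was 82.1 after PBS, 147 after LPS, 292 after IL1b, 169 after TNFa, 308 after IL6 and 286 after TGFb. The scanner software also marks each spot as well above background or not, and the highest probe without that mark stood at 6.67 after PBS, 5.94 after LPS, 5.17 after IL1b, 5.87 after TNFa, 3.56 after IL6 and 4.48 after TGFb. A dim transcript therefore passed as measured more easily on the IL6 and TGFb arrays, on which 12.8% and 11.2% of the negative control spots were also marked, against 0.5% to 2.33% on the other 4. Sizes of differences were read against 2 measures of spread. Repeat spots of 18 mRNAs, well above background on all 6 arrays, had a pooled SD of 0.08 (log2), which gives 0.12 for a difference of single spots and covers spot noise alone. RPL10, a dim repeat-spotted mRNA outside those 18, had SDs from 0.105 after TGFb to 0.77 after LPS, with 0.56 after PBS. The value of 0.12 can therefore be too small for dim spots such as those of LUST and CARIntergenic10. The robust SD of differences over all probes well above background on both arrays of a pair was 0.68 to 0.92 for pairs with PBS, and includes whatever set those arrays apart.

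**Figure D1:**
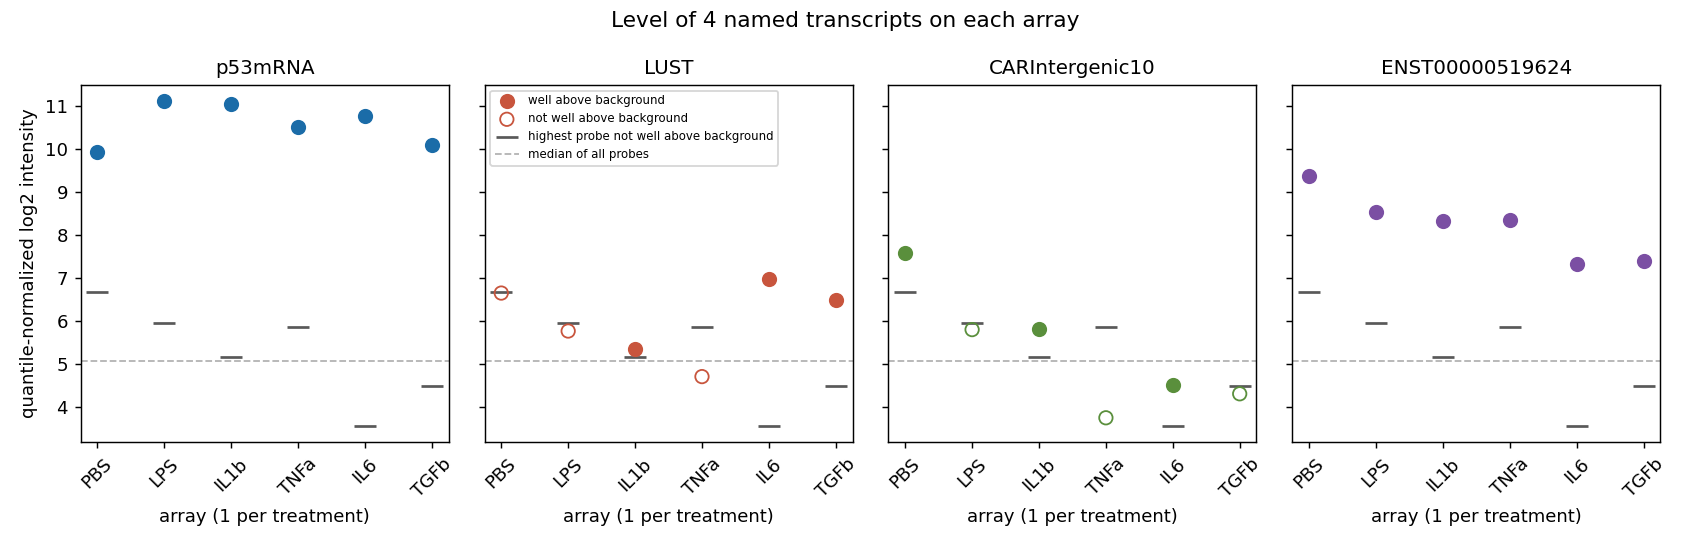
Quantile-normalized log2 intensity (vertical axis) of each transcript on the 6 arrays (horizontal axis, 1 array per treatment). Filled points are well above background, open points are not, dashes give the highest probe not well above background on that array, and the dashed line is the median of all probes. p53mRNA and ENST00000519624 are filled on all 6 arrays, LUST and CARIntergenic10 on 3 each.

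p53mRNA was well above background on all 6 arrays. Its level was 9.93 after PBS, 11.11 after LPS, 11.04 after IL1b, 10.50 after TNFa, 10.77 after IL6 and 10.09 after TGFb. The LPS and IL1b arrays were the highest, the PBS array was the lowest and the TGFb array lay next to it. Against PBS the differences were 1.18 after LPS, 1.11 after IL1b, 0.57 after TNFa, 0.84 after IL6 and 0.16 after TGFb. That after LPS was 1.73 times the robust SD of its array pair, that after IL1b 1.41 times, and that after IL6 0.92 times. Of all probes well above background on both arrays, 4.3% lay at least as far above PBS after LPS and 7.49% after IL1b, so differences of this size were also seen in many other probes. The difference after TGFb was close to that of spot noise, and it turned to -0.22 when arrays were scaled to the 75th percentile of all probes.

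Each gap between neighbours in the order of p53mRNA levels (LPS, IL1b, IL6, TNFa, TGFb, PBS) was below the robust SD of that pair of arrays. The widest of these gaps was 0.41, between TNFa and TGFb. Among the treated arrays alone, p53mRNA spanned 10.09 to 11.11. Against the median of the other 5 arrays it stood at 0.61 after LPS, 0.54 after IL1b, 0.27 after IL6, -0.27 after TNFa and -0.68 after TGFb. The TNFa and TGFb arrays thus lay above PBS but below the middle of the other arrays. The PBS array had the lowest p53mRNA level under 8 of 9 processing settings, and the LPS array the highest under 7. Several settings in this and the later counts were near-identical forms of quantile normalization, so they are not separate checks.

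The scanner signal of p53mRNA showed the same low PBS value on a wider scale. It was 425 after PBS, 2064 after LPS, 3716 after IL1b, 1415 after TNFa, 2208 after IL6 and 1268 after TGFb, an 8.74-fold range. The PBS array was also the dimmest array as a whole. After normalization the range of p53mRNA was 1.18, and 50.1% of the probes well above background on all 6 arrays had a wider one.

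**Figure D2:**
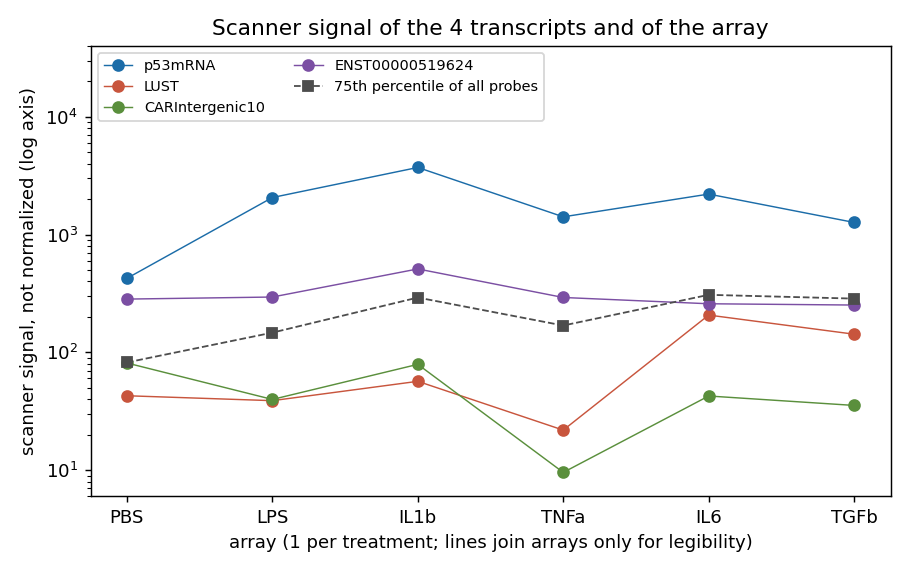
Scanner signal before normalization (vertical, log axis) of the 4 transcripts and the 75th percentile of all probes (squares) on each array (horizontal axis). p53mRNA is lowest after PBS at 425, LUST is highest after IL6 at 207, and ENST00000519624 stays between 252 and 511 while the 75th percentile runs from 82.1 to 308.

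LUST, the antisense transcript of RBM5, was well above background after IL1b, IL6 and TGFb, and not after PBS, LPS or TNFa. Its level was 6.65 after PBS, 5.76 after LPS, 5.34 after IL1b, 4.70 after TNFa, 6.98 after IL6 and 6.49 after TGFb. IL6, PBS and TGFb formed the upper end and TNFa the lower end. The PBS value missed the mark although it was higher than that after IL1b, which passed it. It lay just under 6.67, the highest value without the mark on the PBS array, and the spot was called positive and significant by the software on all 6 arrays.

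Because the PBS spot was not well above background, none of the 5 comparisons of LUST with PBS was measured on both arrays. The differences were 0.34 after IL6, -0.15 after TGFb, -0.88 after LPS, -1.31 after IL1b and -1.94 after TNFa. No fold is given for LPS and TNFa, where neither array was well above background. The bound after IL6, 1.26-fold under quantile normalization, falls on the PBS value itself. It is therefore the plain difference of 0.34 between the spots and not a strict bound. That difference was 0.37 times the robust SD of 0.92 for the pair. Of probes well above background on both arrays, 29.3% lay at least as far above PBS. Over the normalized settings the difference after IL6 ran from 0.09 to 1.29. The difference after TGFb had no settled direction, and ran from -0.42 under cyclic loess to 0.95 when arrays were scaled to the mean of the 18 repeat-spotted mRNAs.

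The comparisons of LUST that were measured on both sides do not involve PBS. LUST was 3.13-fold higher after IL6 than after IL1b, a difference of 1.65 beside a robust SD of 0.83 for that pair, and 5.84% of probes well above background on both arrays lay at least as far that way. It was 2.23-fold higher after TGFb than after IL1b, a difference of 1.16 beside a robust SD of 0.98, reached by 12.6% of probes. IL6 and TGFb differed by 0.49, beside a robust SD of 0.46. Under each of 9 processing settings, several of them near-identical and unnormalized signals included, LUST was highest after IL6 and lowest after TNFa.

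In scanner signal LUST was 42.8 after PBS, 38.9 after LPS, 56.8 after IL1b, 21.9 after TNFa, 207 after IL6 and 143 after TGFb. The IL6 and TGFb arrays stood apart from the other 4. Those are also the arrays with the most marked negative control spots. The LUST spot was brighter than 99.7% of the 600 negative control spots on the IL6 array and 99.2% on the TGFb array, beside 99.5% after PBS, 98.2% after LPS, 97.8% after IL1b and 95.2% after TNFa. The part of array background in the LUST values was not tested.

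CARIntergenic10, the chromatin-associated RNA, was highest after PBS. Its level was 7.58 after PBS, 5.80 after LPS, 5.80 after IL1b, 3.75 after TNFa, 4.51 after IL6 and 4.30 after TGFb. Every treated array lay below the PBS array, and LPS and IL1b lay above the other treated arrays. The spot was well above background after PBS, IL1b and IL6 only. After IL6 its value of 4.51 lay below the highest unmarked values of the PBS, LPS, IL1b and TNFa arrays, and the spot was brighter than 94.3% of the negative control spots there.

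The comparison with IL6 was measured on both arrays, where CARIntergenic10 lay 8.38-fold below PBS. Of probes well above background on both arrays, 0.961% lay at least as far below PBS. After IL1b the difference was -1.77, reached by 0.72%. These shares, like those for LUST, are over probes of any brightness that carried the mark on both arrays. They were not worked out for probes as dim as these transcripts. Where the treated spot was not well above background, PBS stood under quantile normalization at least 3.11-fold above LPS, at least 4.12-fold above TNFa and at least 8.54-fold above TGFb. Over 7 normalized settings the bound for TGFb ran from 3.43-fold, scaled to the mean of the 18 repeat-spotted mRNAs, to 9.67-fold under cyclic loess; that for LPS ran from 3.11 to 3.70 and that for TNFa from 3.98 to 4.57. On the scale of the 18 repeat-spotted mRNAs, the measured difference after IL6 was -1.92. The bounds use the lowest probe well above background on the treated array in place of the dimmer spot itself. On the TNFa array that probe stood at 5.54 while unmarked probes reached 5.87, so the TNFa bound is not strict.

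A single spot, that of the PBS array, carries all 5 differences of CARIntergenic10 from PBS. It was the only 1 of the 24 spots of the 4 transcripts that the scanner software marked as a population outlier of the local background, a mark given to 2.63% of target spots on that array. Without spots so marked, CARIntergenic10 has no PBS value and no difference from PBS can be given. Among the treated arrays, the median of the other 5 arrays was the reference that did not rest on PBS alone. On it CARIntergenic10 stood at 1.29 after LPS and 1.29 after IL1b, and at -2.05 after TNFa, -1.29 after IL6 and -1.49 after TGFb. The sign after LPS and IL1b was thus opposite to that against PBS.

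In scanner signal, CARIntergenic10 was 81.2 after PBS and 79.1 after IL1b, close to each other, and 39.8 after LPS, 9.56 after TNFa, 42.6 after IL6 and 35.4 after TGFb. The IL1b array was the brighter array by its 75th percentile, so the near-equal signals became a difference of -1.77 after normalization. The TNFa spot was not called positive and significant, and was brighter than 88% of the negative control spots. It was the lowest under all 8 settings that gave a PBS value, and PBS was the highest under all 8.

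**Figure D3:**
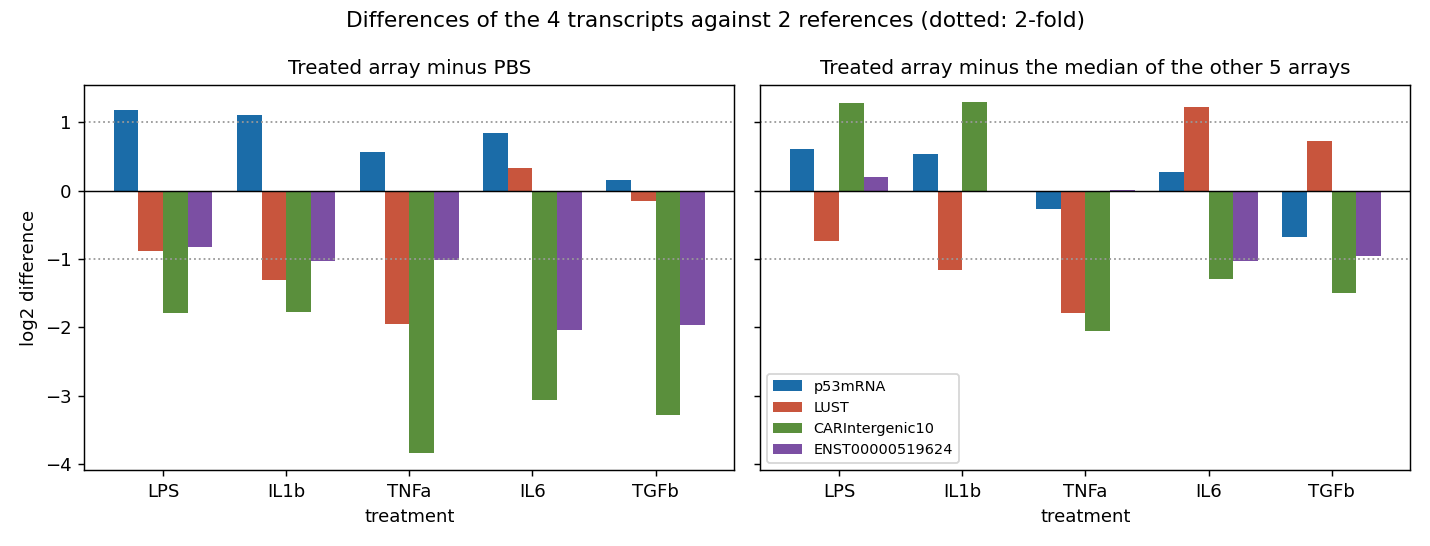
Log2 difference of each treated array (horizontal axis) from PBS (left) and from the median of the other 5 arrays (right) for the 4 transcripts; dotted lines mark 2-fold, and each bar is 1 array. CARIntergenic10 lies below PBS with all 5 stimuli, but at 1.29 above the median of the other arrays after LPS and after IL1b.

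ENST00000519624 was well above background on all 6 arrays and lay below PBS on all 5 treated arrays. Its level was 9.36 after PBS, 8.53 after LPS, 8.33 after IL1b, 8.34 after TNFa, 7.32 after IL6 and 7.39 after TGFb. Under quantile normalization the values formed 3 steps, PBS alone, then LPS, TNFa and IL1b within 0.20 of each other, then TGFb and IL6 within 0.08. Against PBS the differences were -0.83 after LPS, -1.03 after IL1b, -1.02 after TNFa, -2.04 after IL6 and -1.97 after TGFb. That after IL6 is a 4.12-fold lower level and that after TGFb a 3.91-fold lower level.

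Many other probes differed as much on the same arrays. Of probes well above background on both arrays, 6.13% lay at least as far below PBS after IL6, 6.65% after TGFb, 8.73% after IL1b, 8.48% after TNFa and 10.6% after LPS. The step from PBS to LPS, 0.83, exceeded the robust SD of 0.68 of that pair. The gap from IL1b to TGFb, 0.94, was below the robust SD of 0.98. Comparisons that leave PBS out gave 2.02-fold lower after IL6 than after IL1b, 2.32-fold lower than after LPS and 2.04-fold lower than after TNFa. Of probes well above background on both, 17.7%, 9.72% and 16.9% lay as far that way. Against the median of the other 5 arrays ENST00000519624 stood at 0.20 after LPS, -0.01 after IL1b, 0.01 after TNFa, -1.03 after IL6 and -0.95 after TGFb.

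The scanner signal of ENST00000519624 varied least of the 4, with a 2.03-fold range. It was 283 after PBS, 295 after LPS, 511 after IL1b, 292 after TNFa, 259 after IL6 and 252 after TGFb. Apart from IL1b the signals lay close together, while the 75th percentile of the array went from 82.1 after PBS to 308 after IL6. Its place among all probes moved from the 85.8th percentile after PBS to the 72.7th after IL6 and the 73.4th after TGFb. When arrays were scaled instead to the mean of the 18 repeat-spotted mRNAs, the differences were -1.12 after IL6 and -0.95 after TGFb, beside -0.93 after LPS, -0.90 after IL1b and -0.89 after TNFa. On that scale the level was still below PBS with all 5 stimuli. TGFb at 8.10 then lay next to LPS at 8.12, IL1b at 8.16 and TNFa at 8.16, without a step between them. IL6 was lower, at 7.93, by a smaller step than under quantile normalization.

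The same custom set held 3 other transcripts named by an Ensembl identifier, and the files do not say whether the 4 come from 1 gene. ENST00000523627, well above background on all 6 arrays, differed from PBS by -0.81 after LPS, -0.92 after IL1b, -0.79 after TNFa, -1.83 after IL6 and -0.27 after TGFb. It ran beside ENST00000519624 on 4 treated arrays and apart from it after TGFb, where the latter stood at -1.97. ENST00000521141 and ENST00000522960 were well above background on the IL6 and TGFb arrays only. After IL6 and TGFb, ENST00000521141 lay at 6.61 and 7.38 and ENST00000522960 at 7.12 and 6.95.

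**Figure D4:**
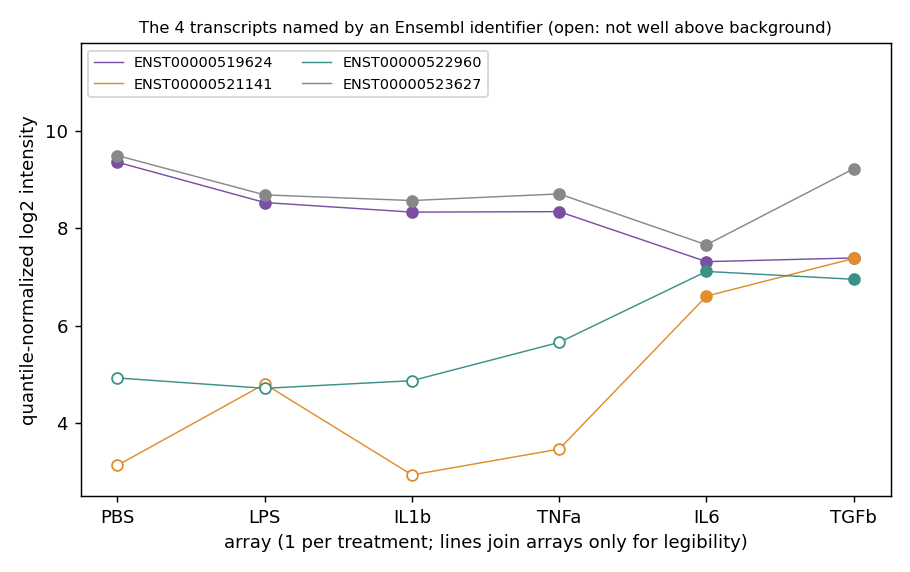
Quantile-normalized log2 intensity (vertical axis) of the 4 Ensembl-named transcripts on the 6 arrays (horizontal axis); filled points are well above background. ENST00000519624 goes from 9.36 after PBS to 7.39 after TGFb, whereas ENST00000523627 returns to 9.23 after TGFb; heights of different probes are not comparable with each other.

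Counted together, 13 of 20 differences from PBS were at least 2-fold with the brighter array above its median, 2 of them higher and 11 lower. After LPS 1 of 4 was higher, beside 15.4% of all probes, and 1 lower, beside 10.9%. After IL1b 1 was higher, beside 17.8%, and 3 were lower, beside 12.9%. After TNFa none was higher, beside 18.1%, and 3 were lower, beside 13.7%. After IL6 and after TGFb none was higher, beside 21.2% and 21.9%, and 2 were lower, beside 21.6% and 21.8%. Since the 4 were chosen on these comparisons, nothing is read from those shares. At least 2-fold were 8 of the 12 differences measured on both arrays. These were p53mRNA and ENST00000519624 for each stimulus and CARIntergenic10 for IL1b and IL6 only, with LUST for none. Among probes well above background on both arrays, the shares at least 2-fold higher and lower were 6.87% and 5.22% for LPS. Of the transcripts so measured, 1 was higher after LPS and none lower. For IL1b the shares were 9.43% and 9.62%, with 1 higher and 2 lower. For TNFa they were 9.06% and 8.91%, with none higher and 1 lower. For IL6 they were 9.64% and 20.4%, with none higher and 2 lower, and for TGFb 10.0% and 18.9%, with none higher and 1 lower. All comparisons with PBS share 1 PBS array.

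The 4 transcripts had different patterns over the arrays. Pearson's r over the 6 arrays was 0.78 between CARIntergenic10 and ENST00000519624, both highest after PBS, and between -0.38 and 0.29 for the other pairs of the 4. With 6 points that share their arrays these values are a description. LUST and CARIntergenic10 were well above background on only 3 arrays each, and correlations here and below use all 6 values. The highest value of CARIntergenic10 among them is the PBS spot marked as a background outlier.

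Among the other named probes, those with the most similar pattern were looked up, requiring that they be well above background on at least as many arrays. For p53mRNA they were uc.141- (r = 0.97), uc.101- (r = 0.965) and H3-3A (r = 0.96), the gene of histone H3.3. For LUST they were exon 1 of HOXC5 (r = 0.997), uc.398- (r = 0.98) and intron 2 of NM_153715 (r = 0.98). CARIntergenic10 was most like uc.268+ (r = 0.93), nc-HOXB4-175 (r = 0.93) and DYNLL1 (r = 0.92), a light chain of the dynein motor. ENST00000519624 was most like uc.274- (r = 0.998), nc-HOXC6-238 (r = 0.995) and uc.155- (r = 0.993). Such values were common for ENST00000519624, with 15.4% of 253 candidates at r of 0.9 or more, and for LUST, with 9.16% of 382. They were less so for p53mRNA, with 2.77% of 253, and CARIntergenic10, with 0.785% of 382.

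Of 24 genes of the p53 pathway, 0 were found under a name on the array, as were 0 of 8 host and neighbour genes of the non-coding transcripts and 0 of 18 markers of the cell line and of other cell types. Those genes, RBM5 and the identity of the cells were therefore not examined, since the probes of most genes carry only a number. A transcript outside these lists, lincRNA-p21, which is known to be induced by p53, does have a named probe, and it was picked out after its values were seen. It was well above background on none of the 6 arrays, at 2.93 to 3.14. HOTAIRM1, another transcript of the same custom sets without the mark on any array, spanned the same values. They are the floor of these arrays, and this probe gives no reading of p53 activity.

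The scaling of the arrays bore most on the IL6 and TGFb comparisons. Over the normalized settings the difference of p53mRNA from PBS ran from 0.47 to 1.39 for IL6 and from 1.18 to 1.44 for LPS. That of CARIntergenic10 ran from -3.46 to -1.98 for TGFb and from -1.95 to -1.77 for IL1b. For ENST00000519624 it ran from -2.05 to -1.12 for IL6 and from -1.06 to -0.89 for TNFa. LUST kept a narrower range for TNFa, -2.06 to -1.91, than for IL6.

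**Figure D5:**
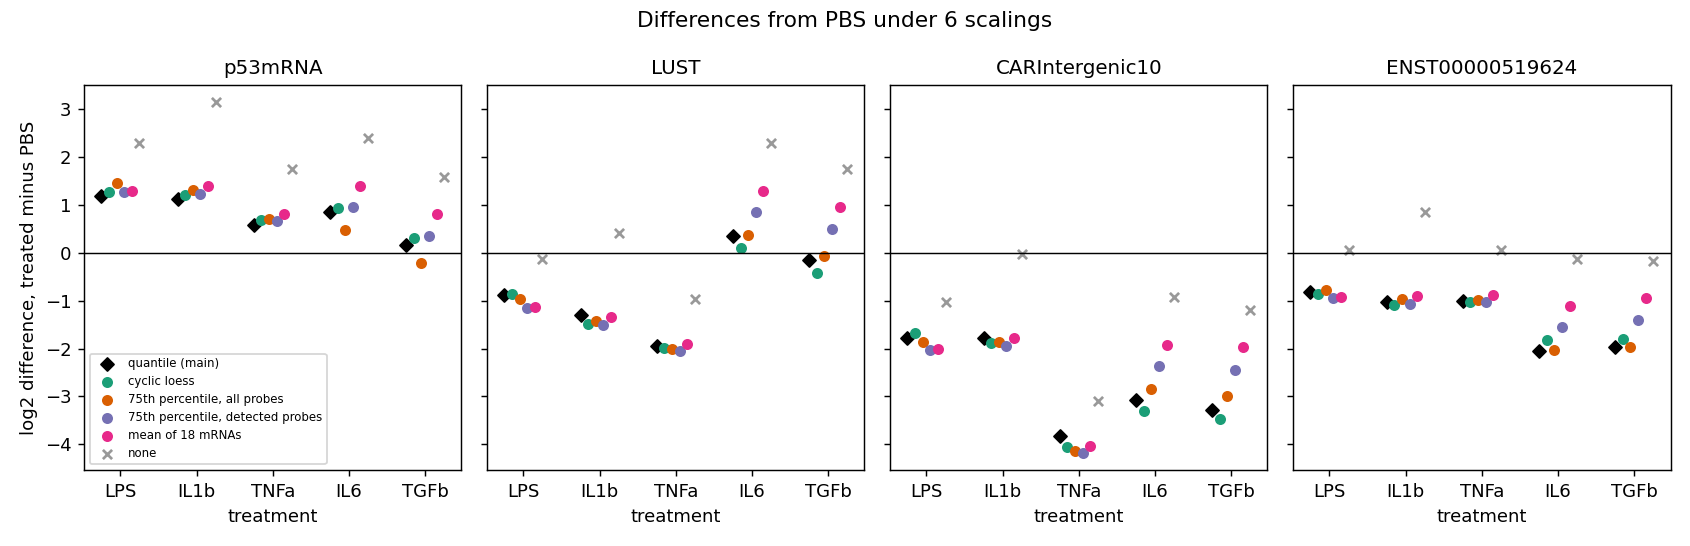
Log2 difference from PBS (vertical axis) for each stimulus (horizontal axis) and transcript under 6 scalings of the same signals; each point is 1 pair of arrays. p53mRNA after TGFb and LUST after TGFb lie on either side of 0, while CARIntergenic10 stays below 0 under all 6 scalings. Without normalization it lies at -0.04 after IL1b, and ENST00000519624 after LPS, IL1b and TNFa and LUST after IL1b turn to above 0.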

How the data were processed

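Total RNA of 6 samples was taken with TRIzol and its cDNA carried Cy3, per the labels' protocols. The labels describe a NimbleGen format array, while the deposited files have the columns of Agilent Feature Extraction; the files were followed. Deposited intensity values are the processed signals of single spots, per the file headers, with 0 or 1 flags. The authors also deposited a table of log2 values, for which the submitters' processing notes name RMA; among probes well above background it differed from the values used here by a median of 0.0002 to 0.00063 per array and by at most 0.017 on the LPS array and 1.20 on the PBS array, and had column medians of 5.07.

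Control spots and spots marked as outliers of the feature, or as uneven in the background, were left out, repeat spots were averaged on the log2 scale, and 60594 of 60639 target probes were quantile normalized with limma 3.58.1 (R 4.3.3). A difference counted when it was at least 2-fold and the brighter array lay above its median. A fold is given where both arrays were well above background, and a bound where only the brighter one was. Groups came from the treatment in the labels. With 1 array per group no test was run. The number of arrays limits the precision. The counting was checked on simulated data whose spread was below that of the array pairs with PBS. That check does not show how many unchanged probes pass on these arrays. Members and lists were chosen with earlier results of these data known. The 4 transcripts, the 3 most alike named probes for each and any gene of the fixed lists found by name were to be named; the other Ensembl-named transcripts were added after their values were seen. Sequences are from RefSeq, GRCh38.p14. No genome build is given for the probes, so no probe positions are printed.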

Additional observations from a re-analysis of the deposited data

How the results depend on the processing

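Of the 20 differences from PBS, 18 kept their sign under quantile normalization and the normalized alternatives that kept PBS as the control (75th percentile in 2 forms, cyclic loess with span 0.7, the series table, quantile of each pair, outlier spots kept, and 2 settings chosen after seeing the data, the mean of 18 repeat-spotted mRNAs and leaving out background population outliers). The exceptions were p53mRNA and LUST after TGFb, from -0.22 to 0.80 and from -0.42 to 0.95. The count of 13 differences past 2-fold became 8 at a 3-fold threshold, 8 where both arrays had to be well above background and 8 without background population outliers, since CARIntergenic10 then had no PBS value. Without normalization, the sign turned for 5 differences, ENST00000519624 after LPS (0.058), IL1b (0.85) and TNFa (0.046) and LUST after IL1b (0.41) and TGFb (1.74). Against the median of the other 5 arrays it turned for 7, CARIntergenic10 after LPS (1.29) and IL1b (1.29), ENST00000519624 after LPS (0.20) and TNFa (0.010), p53mRNA after TNFa (-0.27) and TGFb (-0.68) and LUST after TGFb (0.73). Without normalization the median of all probes differed from PBS by 0.16 to 1.26, and by -0.72 to -0.65 under the 75th percentile of all probes. Normexp was not run, as the columns it needs were not used here. No paired analysis was possible because each group has 1 array. LUST and CARIntergenic10 lay near background, which limits their folds.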

Other observations

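Of the 25 transcripts of the same custom sets, 7 were well above background on all 6 arrays and 7 on none. By array, 8 passed after PBS, 9 after LPS, 11 after IL1b, 9 after TNFa, 18 after IL6 and 15 after TGFb. A group of 6 passed on the IL6 or TGFb array and on no other, 4 of them on both. Probes for spike-in controls (ERCC and E1A), designed against no human gene, carried that mark on 44.5% of spots after IL6 and 24.5% after TGFb, beside 5.32% after PBS and 10.3% to 10.4% on the other arrays. Whether spike-in RNA was added to the samples was not examined, and the part of background in these detections was not tested.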
